A study of Mus musculus with 9 samples.

Results

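Transcripts of the angiomotins and of the Hippo pathway effectors were followed over 3 stages in the mid-foregut of the mouse embryo, the part of the early gut tube between pharynx and liver that gives rise to the lung. The 10 genes considered were the angiomotins Amot, Amotl1 and Amotl2, the co-activator genes Yap1 and Wwtr1, the transcription factor genes Tead1 and Tead2, the kinase genes Lats1 and Lats2, and the target gene Ccn1, long called Cyr61. The members were all probe sets of the array that the platform annotation assigns to 1 of these symbols and to no other gene. There were 20 such probe sets among 22690, and they covered 9 of the 10 genes. No probe set carried the single symbol Amotl1, so Amotl1 is not analysed here. The genes were picked partly on stage differences in the signal of these same arrays, so those differences are given as a description and their p-values support nothing further.

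Embryos were staged by somites, the paired blocks of mesoderm laid down along the body axis, at 16-20 somites (labelled embryonic day 8.5), 21-25 somites (day 9.0) and 26-30 somites (day 9.5). All 3 groups were wild type, with no treatment named, and each had 3 biological replicates. A replicate was a pool of 5 to 10 foreguts from which the neural tube and the heart had been dissected away, and its RNA was amplified in 2 rounds before it went on 1 array. Replicate spread thus covers both pools and arrays, and with 3 arrays a stage it is known only roughly.

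In the Hippo pathway the upstream kinases encoded by Stk3 and Stk4 activate the LATS kinases, which phosphorylate the co-activators YAP (Yap1) and TAZ (Wwtr1) and hold them in the cytoplasm. Unphosphorylated YAP and TAZ enter the nucleus and act through the DNA-binding TEAD factors on target genes such as Ccn1. Angiomotins are scaffold proteins of tight junctions and the actin cytoskeleton that bind YAP and TAZ and are themselves LATS substrates. In the mouse embryonic lung the pathway is known for its part in epithelial branching. Much of this control lies in phosphorylation and location of proteins, which a transcript array does not measure.

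TEAD factors bind the sequence GGAATG, which reads CATTCC on the other strand, and both strands of the window from 250 bases before to 50 bases after each annotated start site were searched for it in the RefSeq promoters of build GRCm38.p6. It was present for 5 of the 9 member genes with a promoter in that table, Amotl2, Ccn1, Lats2, Wwtr1 and Yap1, and for 16.6% of all 27025 genes. These 9 genes include Amotl1, which had no probe set, and lack Tead1, for which no promoter was given. Counted over start sites, 6 of 11 member promoters held it, against 14.7% of 32851. Among the 6 are 2 Wwtr1 promoters whose windows overlap and share 1 match. A match describes letters in a window and is not shown to be a bound site. The upstream 250 bases are printed for Ccn1 and Amotl2, target genes of YAP and TAZ that hold the motif, and for Amot, which had the widest stage difference among the brightest probe sets and no match in this window. The only Amot start site searched lies inside the annotated span of the gene, as does that of Amotl1. The upstream ends of these spans were not searched, so the motif is not shown to be absent from every Amot promoter. The sequences run 5′ to 3′ on the strand of the gene, with the motif in capitals. They lie at chr3:145649986-145650235 on the minus strand for Ccn1, chr9:102717554-102717803 on the plus strand for Amotl2, and chrX:145487640-145487889 on the minus strand for Amot.
Ccn1: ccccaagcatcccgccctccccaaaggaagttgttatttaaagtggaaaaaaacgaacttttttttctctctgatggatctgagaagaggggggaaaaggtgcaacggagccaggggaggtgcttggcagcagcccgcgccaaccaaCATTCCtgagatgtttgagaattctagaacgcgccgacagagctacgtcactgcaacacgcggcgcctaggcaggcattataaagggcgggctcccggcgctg
Amotl2: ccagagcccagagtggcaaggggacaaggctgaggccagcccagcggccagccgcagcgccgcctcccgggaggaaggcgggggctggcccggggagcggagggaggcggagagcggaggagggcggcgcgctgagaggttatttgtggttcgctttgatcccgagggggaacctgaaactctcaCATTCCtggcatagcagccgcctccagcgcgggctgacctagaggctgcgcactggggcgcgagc
Amot: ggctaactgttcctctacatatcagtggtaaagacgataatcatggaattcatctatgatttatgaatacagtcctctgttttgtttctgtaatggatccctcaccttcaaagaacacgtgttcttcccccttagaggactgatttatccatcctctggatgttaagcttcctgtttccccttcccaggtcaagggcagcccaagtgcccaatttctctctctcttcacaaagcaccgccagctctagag
The motif began 103 bases before the start site in Ccn1 and 65 bases before it in Amotl2. In Yap1 it began 141 bases before the start site, and in Lats2 it lay at base 5 of the transcript from the upstream of its 2 start sites.

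Signals are on the linear MAS5 scale as deposited. Differences are log2 differences, later minus earlier stage, of signal plus a pseudocount of 26.1, with the SE from limma, and dim probe sets appear to change less on it than they do. The first step is 21-25 against 16-20 somites, the second 26-30 against 21-25 somites, and the whole interval 26-30 against 16-20 somites. Of the 20 member probe sets, 17 from 8 genes passed a filter on low signal and were tested among 14266 probe sets. The only probe set for Lats1 and 2 of the 6 for Lats2 lay below that filter. Where a gene has several probe sets the brightest is described first, and no level is compared between probe sets. The top signal was 27480 to 32584 on 21-25 somites replicate 1 and on replicates 1 and 2 of 26-30 somites, and 43792 to 61749 on the other 6 arrays. These 3 arrays with the lower top signal are called narrow-range, and since none is of 16-20 somites this trait and stage cannot be fully told apart. On the narrow-range arrays the beta-actin probe set near the 3′ end read 20.9 to 22.2 times the one near the 5′ end, and 22.4 to 45.3 times on the rest. Of 8 foregut epithelial markers 7 passed the filter. The summed signal of all 8 was 7243 to 15415 on the 3 arrays of 16-20 somites, above all 6 later ones. It was 5552 to 7118 at 21-25 somites and 5601 to 7069 at 26-30 somites. Of the 16-20 somites arrays, replicate 2 held the 15415, and it also had the highest hepatic and cardiac marker sums. The other 2 held 7243 and 8161, the lower of them close to the highest later sum. A sum can rest on few bright genes and does not show that each marker moved with stage. The part of these markers in the stage differences of the members was not tested. The erythroid markers summed to 17944 to 57466 and neural ones to 310 to 915. In a bulk sample fewer cells of a type and less RNA per cell cannot be told apart.

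In the brightest probe sets, Amot signal was lower and Tead2 signal higher at 26-30 than at 16-20 somites with no overlap between arrays. At 21-25 against 16-20 somites the mean was higher, with overlap, in the brightest probe set of every gene tested. The log2 difference was widest in Lats2 (0.82), Ccn1 (0.57) and Yap1 (0.50) and narrowest in Tead2 (0.04). Without the narrow-range arrays those of Tead1 and Tead2 were negative, at -0.10 and -0.13. Among all 9513 genes, 4777 were positive at this step. The stages of Amotl2, Ccn1, Lats2, Tead1, Wwtr1 and Yap1 overlapped throughout in the brightest probe sets. By limma, 0 of the 17 member probe sets had an adjusted p under 0.05 in any of the 3 comparisons, and the share called among all 14266 probe sets was 0%. At an unadjusted p under 0.05, 3 member probe sets stood out over the whole interval (Amot, Lats2 and Tead2), 3 at the first step (2 of Lats2 and 1 of Ccn1) and 2 at the second (Amot and Tead2). The shares of all probe sets at that level were 10.4%, 9.99% and 3.69%. The 3 arrays of each stage were fully apart for 2 member probe sets over the whole interval, 0 at the first step and 2 at the second, and for 20.4%, 13.3% and 9.2% of all probe sets. Tested over all stages together with limma's F test, the brightest Amot probe set had an adjusted p of 0.479 and rank 76, and 0 probe sets were called, against 8.62% at an unadjusted p under 0.05.

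Amot had, in its brightest probe set only, the clearest stage pattern among the members, a lower signal at 26-30 somites than at either earlier stage. Its brightest probe set, 1454890_at, read 4594, 3533 and 3652 at 16-20 somites, 5208, 4402 and 4154 at 21-25 somites, and 2504, 2248 and 2601 at 26-30 somites. All 3 arrays of the last stage lay below all 6 earlier ones, while the first and middle stages overlapped. The stage means were 3926 ± 581, 4588 ± 551 and 2451 ± 182 (SD, n = 3 each). In 26-30 against 21-25 somites the mean signal was 0.534 times as high, a log2 difference of -0.89 ± 0.21, and in 26-30 against 16-20 somites 0.624 times as high, or -0.67 ± 0.21. The first step, 21-25 against 16-20 somites, gave 0.23 ± 0.21, about its SE. The lower signal of the last stage was thus seen against both earlier ones, which lay close together. By unadjusted p the second step placed this probe set at rank 8 of 14266, with an unadjusted p of 0.000969 but an adjusted p of 0.998 in limma. Over the whole interval it had rank 260 and an adjusted p of 0.385.

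The brightest Amot probe set kept the sign of its differences under every setting tried, though several of these settings cannot change a difference. Neither sign nor size held across the Amot probe sets, the dimmer ones giving 0.03 ± 0.27 and 0.12 ± 0.29 over the whole interval. For the brightest one, leaving out single arrays gave -0.96 to -0.80 for the second step and -0.74 to -0.55 for the whole interval. Without the narrow-range arrays, which leaves a lone array at 26-30 somites whose spread is taken from the other stages, the values were -0.71 and -0.58. With arrays weighted by their spread, limma gave the whole interval an adjusted p of 0.0499, the 1 member call under any setting, where that setting called 4.18% of all 14266 probe sets. The other Amot probe sets had no such pattern. Probe set 1425907_s_at, whose suffix marks probes that match more than 1 transcript, had stage means of 234.5 ± 79.7, 249 ± 15.2 and 235 ± 56.4. The dim 1427584_at had 71.3 ± 25.9, 54.9 ± 10.7 and 78.0 ± 20.1, close to the filter level. Across the 9 arrays the brightest probe set correlated with these at a Pearson r of 0.15 and -0.50 on the log2 scale. The mean of all 3 probe sets gave -0.21 for the second step and -0.17 for the whole interval.

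**Figure D1:**
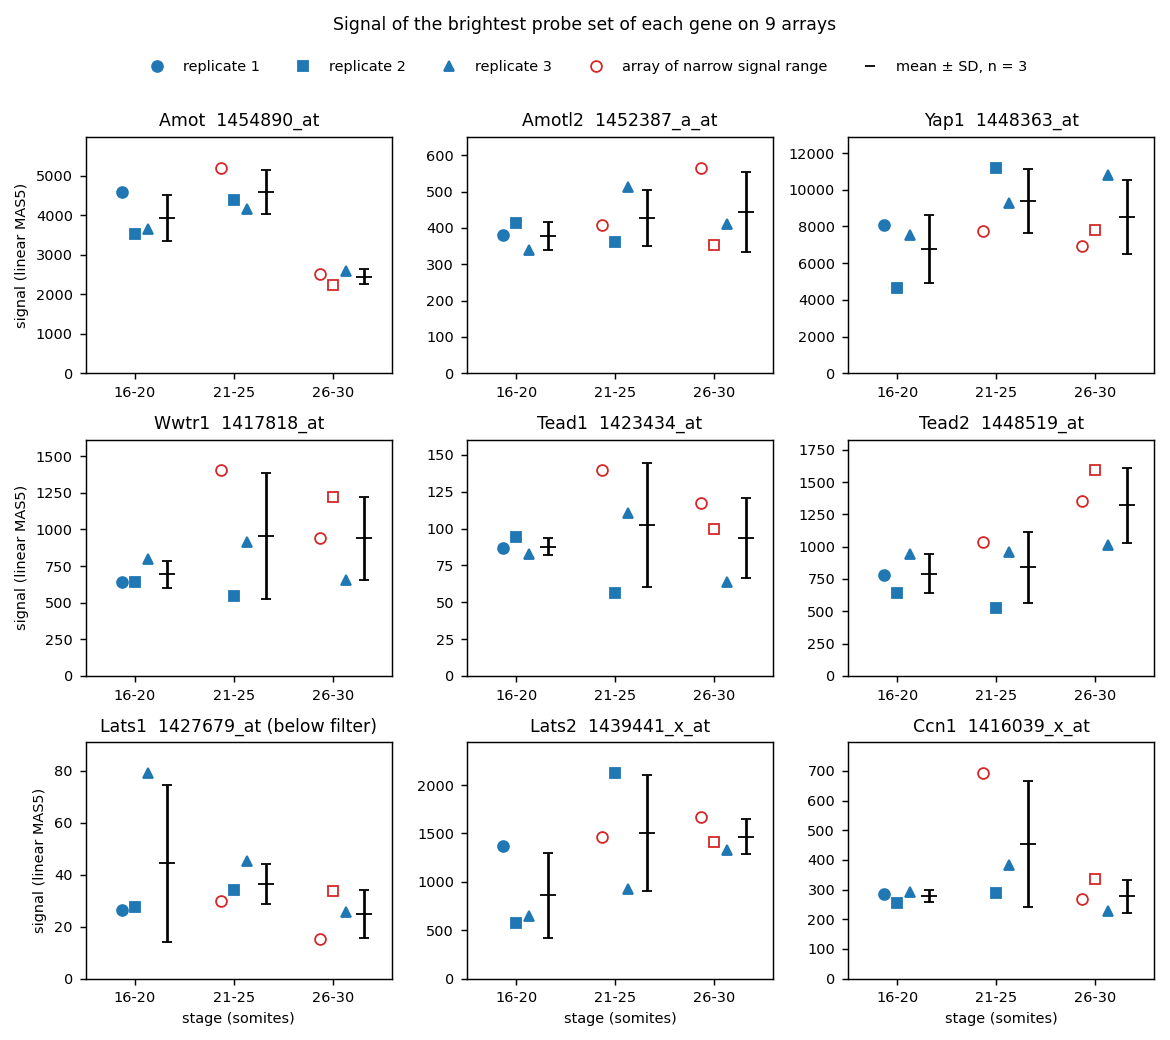
Signal (linear MAS5 scale, from 0) of the brightest probe set of each of 9 genes against stage in somites, with 1 point an array, a mark for each replicate and bars for mean ± SD of 3 arrays. Open red marks are the 3 narrow-range arrays. Amot lay between 2248 and 2601 on the 3 arrays of 26-30 somites, below all 6 earlier arrays, and Ccn1 and Wwtr1 were highest on 21-25 somites replicate 1.

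Amotl2, an angiomotin and itself a target gene of YAP and TAZ, had 1 probe set, 1452387_a_at, with overlapping stages. It read 380, 415 and 338 at 16-20 somites, 409, 362 and 514 at 21-25 somites, and 566, 355 and 412 at 26-30 somites. The differences were 0.16 ± 0.24 for the first step, 0.04 ± 0.24 for the second and 0.20 ± 0.24 for the whole interval, each under its SE, and without 26-30 somites replicate 1 the whole interval gave 0.02. Of the Amot probe sets only the brightest had a difference of the other sign over the whole interval, the dimmer ones giving 0.03 ± 0.27 and 0.12 ± 0.29.

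Yap1, the gene of the main co-activator, had a bright probe set, 1448363_at, with a lower mean at 16-20 somites than later. It read 8089, 4665 and 7554 at 16-20 somites, 7733, 11199 and 9278 at 21-25 somites, and 6937, 7793 and 10810 at 26-30 somites. The stages overlapped. The first step gave 0.50 ± 0.27 and the whole interval 0.34 ± 0.27, and without 16-20 somites replicate 2, the lowest array, these were 0.25 and 0.10. That same array also held the highest summed signal of the hepatic, cardiac and epithelial marker lists, 33752, 18192 and 15415, against 1332 to 8264, 2166 to 7028 and 5552 to 8161 on the others, and the part of this in the result was not tested. Leaving out the narrow-range arrays gave 0.63 for the first step and 0.71 for the whole interval. The dimmer Yap1 probe set 1416487_a_at had stage means of 394 ± 89.8, 353 ± 40.8 and 347 ± 71.8 and differences of -0.13 ± 0.24 and -0.17 ± 0.24, opposite in sign to the brighter one. The 2 probe sets correlated at r = 0.43 over the 9 arrays.

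Wwtr1, which encodes TAZ, had 3 probe sets that disagreed. The brightest, 1417818_at, read 640, 641 and 799 at 16-20 somites, 1403, 546 and 915 at 21-25 somites, and 943, 1218 and 656 at 26-30 somites. The stages overlapped, and all 3 narrow-range arrays, at 943 to 1403, lay above the other 6, at 546 to 915. Its whole-interval difference was 0.39 ± 0.33, and without the narrow-range arrays it was -0.07. The probe set 1417817_a_at had 0.29 ± 0.25 for the second step with all 3 arrays of 26-30 somites above those of 21-25 somites, at 142.5 to 162 against 98.7 to 135, and -0.14 ± 0.25 over the whole interval. For 1437155_a_at the whole interval gave 0.24 ± 0.24. The first and second of these correlated at r = -0.27, and 1437155_a_at correlated with them at 0.37 and 0.31.

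Tead2, which encodes a TEAD factor of the early embryo, had the only member probe set with all 3 arrays of 26-30 somites above all 3 of 16-20 somites. Probe set 1448519_at read 782, 644 and 947 at 16-20 somites, 1034, 523 and 962 at 21-25 somites, and 1354, 1591 and 1016 at 26-30 somites. The last stage lay apart from the first, while 1 array of 21-25 somites reached into it. The means were 1320 ± 289 at 26-30 and 791 ± 152 at 16-20 somites, a ratio of 1.67 and a log2 difference of 0.71 ± 0.29 with an adjusted p of 0.438 in limma. The second step gave 0.67 ± 0.29 and the first 0.04 ± 0.29. The 3 narrow-range arrays, at 1034 to 1591, were all above the other 6, at 523 to 1016, and without them the whole interval gave 0.37 and the second step 0.50. With each array's 99th percentile as covariate the whole interval gave 0.47, and without 21-25 somites replicate 2 the second step gave 0.37. Lying above all other arrays on the narrow-range ones was shared by 3 of the 17 member probe sets, those of Tead2 and 2 of Wwtr1, and by 9.74% of all probe sets tested.

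Tead1, whose product acts with YAP and TAZ in the same way, was dim and had no stage difference beyond its spread. It read 86.7, 94.2 and 82.5 at 16-20 somites, 139.5, 56.6 and 111 at 21-25 somites, and 117, 99.8 and 63.8 at 26-30 somites. Both later stages spanned the whole range of the first one. The differences lay between -0.07 and 0.12 in the 3 comparisons, with an SE of 0.30.

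The kinase genes were measured unevenly. Lats1 had 1 probe set, 1427679_at, with 15.1 to 79.1 over the 9 arrays, a median of 29.9 and means of 44.3 ± 30.1, 36.4 ± 7.85 and 24.8 ± 9.32 by stage, below the filter and not tested. Lats2, the second LATS kinase and also a target gene of YAP and TAZ, had 6 probe sets, of which 4 passed. The brightest, 1439441_x_at, read 1368, 572 and 644 at 16-20 somites, 1464, 2124 and 924 at 21-25 somites, and 1670, 1408 and 1327 at 26-30 somites. The last stage overlapped the first through 16-20 somites replicate 1. The first step gave 0.82 ± 0.36, the second 0.04 ± 0.36 and the whole interval 0.85 ± 0.36, with an adjusted p of 0.443 in limma. Leaving out single arrays gave 0.53 (without 21-25 somites replicate 2) to 1.20 for the first step and 0.62 (without 16-20 somites replicate 2) to 1.23 for the whole interval, both upper values without 16-20 somites replicate 1. With the narrow-range arrays and 16-20 somites replicate 2 left out the whole interval gave 0.49.

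The suffix of this Lats2 probe set marks probes that can match other transcripts, and the other Lats2 probe sets followed it in part. 1437101_at had 68.5, 34.9 and 57.0 at 16-20 somites, 159, 149.5 and 62.0 at 21-25 somites, and 51.4, 83.9 and 78.3 at 26-30 somites, a first step of 0.86 ± 0.33 and a second of -0.56 ± 0.33. The first step was 0.41 with array weights, and the second was -0.25 without the narrow-range arrays and -0.91 to -0.37 when single arrays were left out. It correlated with the brightest one at r = 0.70. Over the whole interval 1425420_s_at gave 0.28 ± 0.27, which became 0.13 when 26-30 somites replicate 3 was left out and 0.59 when the narrow-range arrays were. The dim probe set 1419678_at, with a mean just above the filter level, had the other sign, -0.73 ± 0.35. It read 27.5, 83.0 and 22.0 at 26-30 somites, near the pseudocount on replicates 1 and 3. Its difference became -1.10 when 26-30 somites replicate 2 was left out. It became -1.17 when the narrow-range arrays were, which rests on the lone array at 22.0. The 2 below the filter, 1419679_at and 1426156_at, stayed between 1.10 and 10.1 and between 4.50 and 19.8. The mean of all 6 gave 0.11 over the whole interval and 0.25 for the first step.

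Ccn1, which encodes a secreted matrix protein and is a standard readout of YAP and TAZ activity, was highest at 21-25 somites in both of its probe sets. 1416039_x_at read 286, 255 and 293 at 16-20 somites, 693, 287 and 384 at 21-25 somites, and 268, 337 and 228 at 26-30 somites. 1438133_a_at read 127, 138 and 99.6 at 16-20 somites, 367, 137 and 192 at 21-25 somites, and 112, 154 and 115 at 26-30 somites. In both the middle stage overlapped the others, with 21-25 somites replicate 1 far above the rest. The first step gave 0.57 ± 0.29 and 0.72 ± 0.31, the second -0.59 ± 0.29 and -0.67 ± 0.31, and the whole interval -0.02 ± 0.29 and 0.05 ± 0.31. Without 21-25 somites replicate 1 the first step was 0.24 and 0.36 and the second -0.25 and -0.31. The probe sets correlated at r = 0.94 over the 9 arrays, the highest of the 14 pairs from 1 gene that passed the filter, of which 5 had a negative r and the lowest was -0.61, within Lats2.

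**Figure D2:**
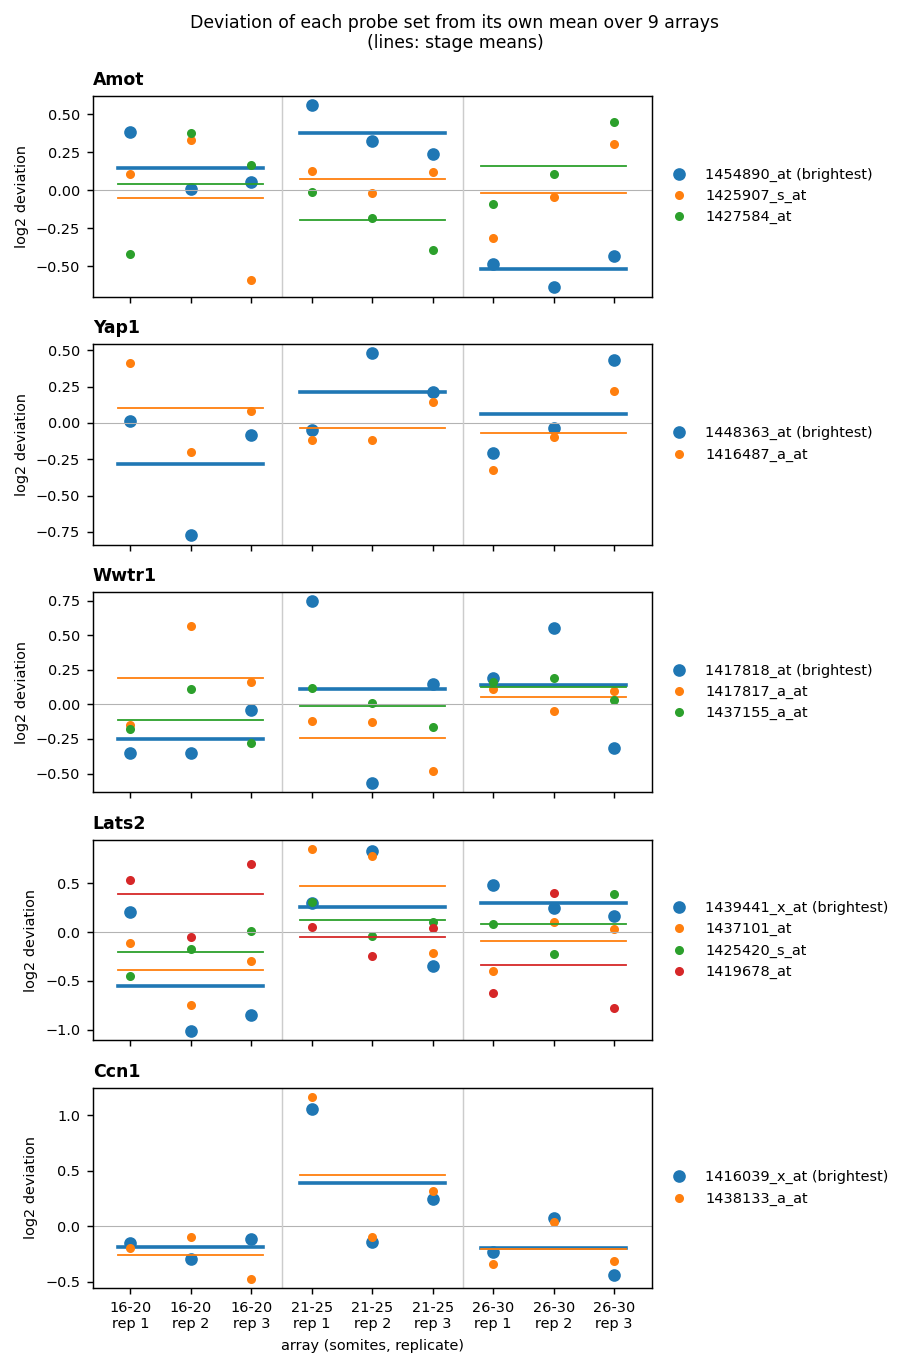
Log2 deviation of each probe set from its own mean over the 9 arrays, for the 5 genes with more than 1 probe set past the filter, with short lines for the stage means. The 2 Ccn1 probe sets move together from array to array (r = 0.94), while in Amot the brightest probe set alone is low on all 3 arrays of 26-30 somites.

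On 21-25 somites replicate 1, a narrow-range array, the brightest probe sets of Amot, Ccn1, Wwtr1 and Tead1 had their highest signals. The summed signal of the mesenchymal marker list there, over the 8 of its 9 listed symbols with a probe set, was 17419. It lay between 8889 and 13159 on the other arrays. The endothelial list, with probe sets for all 9 genes and 7 past the filter, was also highest there, at 3232 against 1540 to 2508. So was the neural and neural crest list, at 915 against 310 to 703, with probe sets for 5 of its 7 genes and 4 past the filter. The epithelial and erythroid sums were lowest on this array, at 5552 and 17944. The part of these markers in the member signals was not tested. Across the 9 arrays the brightest probe sets of Wwtr1 and Tead1 correlated at r = 0.83, Wwtr1 and Tead2 at 0.76, Wwtr1 and Ccn1 at 0.76, and Amot and Tead2 at -0.64. These coefficients describe 9 shared arrays with their depth of signal and stage, and carry no test.

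**Figure D3:**
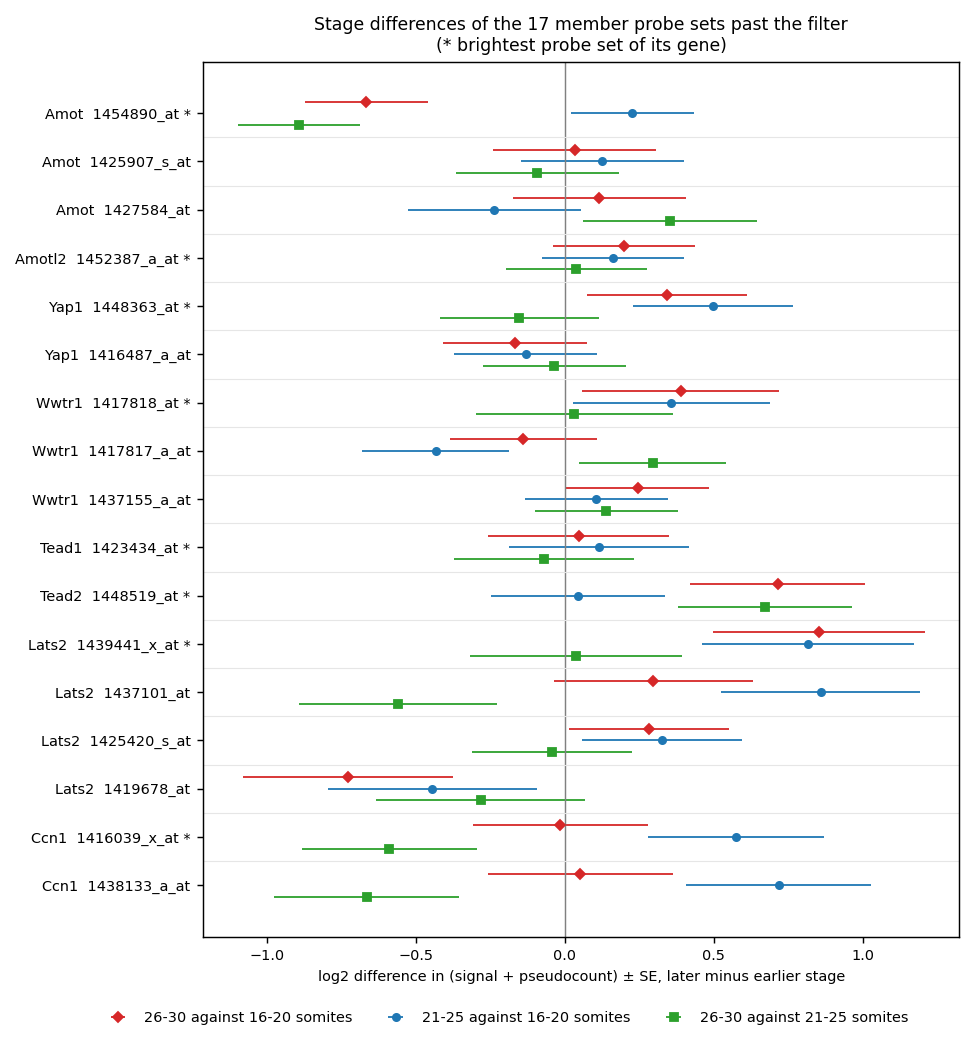
Log2 difference in signal plus pseudocount, later minus earlier stage, with SE from limma, for the 17 member probe sets past the filter in the 3 comparisons. The brightest Amot probe set stands at -0.89 and -0.67 in the comparisons with 26-30 somites, and probe sets of 1 gene often lie on opposite sides of 0.

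Further genes of the pathway were taken from 5 lists, with 63 genes in all, of which 42 passed the filter, and in limma 0 of these had an adjusted p under 0.05 in any comparison. Over the whole interval 2 were higher and 1 lower at an unadjusted p under 0.05, at the first step 5 and 1, and at the second 1 and 1. Among all 9513 genes 557 were higher and 433 lower over the whole interval at that level, 502 and 472 at the first step, and 171 and 184 at the second. The median difference of the 42 was 0.03 over the whole interval, 0.17 at the first step and -0.09 at the second, and that of all 9513 genes was 0.00 in each. The first-step median of the 42 was 0.02 once the narrow-range arrays were left out.

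Core kinases and adaptors gave 6 tested genes with a median of -0.01 over the whole interval. The kinase gene Map4k4 had -0.50 ± 0.35, the kinase gene Taok3 -0.33 ± 0.25, and Mob1a, the LATS co-activator, 0.07 ± 0.21. Upstream regulators gave 10 with a median of 0.03, and their widest differences were those of Wwc2, a relative of the scaffold gene Kibra, at 0.88 ± 0.35, the adaptor gene Rassf1, at -0.69 ± 0.47, and the phosphatase gene Ptpn14, at -0.59 ± 0.34. Wwc2 had a mean of 635 ± 232 at 26-30 and 320 ± 68.0 at 16-20 somites (SD, n = 3 each).

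Angiomotin partners at tight junctions and ubiquitin ligases gave 12 tested genes, 9 of them positive over the whole interval, with a median of 0.05, where 4793 of all 9513 genes were positive. Lin7c, a small scaffold of the Crumbs complex, had a mean of 2015 ± 638 at 26-30 and 1103 ± 252 at 16-20 somites, or 0.83 ± 0.29, and 0.89 ± 0.29 at the first step. The multi-PDZ scaffold gene Mpdz had 0.51 ± 0.26 and the ubiquitin ligase gene Itch 0.48 ± 0.35 over the whole interval. Among 3 nuclear partners, Runx1, a transcription factor of blood formation, was dim and had 1.08 ± 0.35 at the second step and 0.26 ± 0.35 over the whole interval. The cofactor gene Vgll4 had 0.07 ± 0.25 and the TEAD gene Tead3 0.02 ± 0.21.

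The list of YAP and TAZ targets, known from human cancer cells and taken without Amotl2, Lats2 and Ccn1, had 11 of 18 genes past the filter. Its median was 0.26 at the first step, -0.23 at the second and 0.12 over the whole interval, with 6, 4 and 6 genes positive, where 4777, 4797 and 4793 of all 9513 were. Without the narrow-range arrays these medians were -0.10, -0.17 and -0.34, so the sign of the first-step and whole-interval medians turned. The receptor kinase gene Axl had 0.78 ± 0.40, the membrane protein gene Myof -0.78 ± 0.32 and the forkhead gene Foxf2, known also for gut mesenchyme, 0.77 ± 0.35 over the whole interval. All 3 were dim, with stage means between 49.2 and 125.

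**Figure D4:**
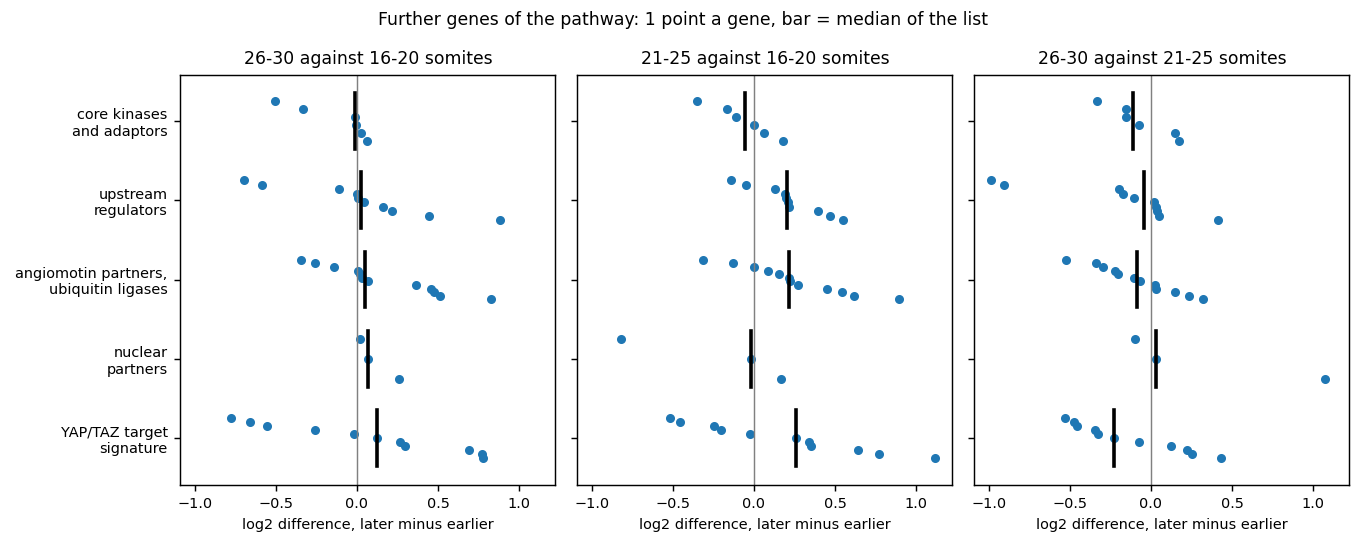
Log2 difference of each tested gene of 5 pathway lists, later minus earlier stage, in the 3 comparisons, with 1 point a gene and a bar at the list's median. The medians lie between -0.23 and 0.26, and single genes on both sides of 0.

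Among the 9512 other genes past the filter, those most like Amot over the 9 arrays by Pearson r of log2 signal were Dusp11 (0.95), Cetn3 (0.94), Twist1 (0.93), Gpatch4 (0.92) and P4ha2 (0.91). Cetn3, a centrin of the centrosome, had means of 806 ± 164 at 26-30 and 1729 ± 113 at 21-25 somites. Twist1, a transcription factor of mesenchyme, had 130.2 ± 30.8 at 26-30 and 347 ± 120.4 at 21-25 somites. Dusp11, an RNA phosphatase gene, had 1259 ± 58.8 at 26-30 and 1664 ± 40.4 at 21-25 somites. These genes were picked as the highest of 9512 coefficients on the same arrays.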

How the data were processed

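Intensity was deposited by the authors on a linear scale, 1 Affymetrix array a pool, made with MAS5 per the submitters' processing notes. The sources used here state neither the MAS5 version nor its scaling target, and no detection calls were used. Per the labels' protocols, 100 ng of RNA was amplified in 2 rounds, which favours 3′ ends. After trimming 2% at each end all arrays averaged about 500.2, and array medians lay within 0.30 log2, under the limit of 0.5 for further normalization. Of 22690 probe sets, 20380 had 1 symbol in the platform annotation, and 20351 matched RefSeq gene identifiers, which changed 0 symbols. Values were taken to log2 after adding the 20th percentile of all values. Probe sets with a mean under the 30th percentile were left out.

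Stage means of 14266 probe sets were fitted to all 9 arrays in limma 3.58.1 (R 4.3.3; lmFit, eBayes with a trend), two-sided, with Benjamini-Hochberg adjustment at 0.05. Named were all members, at most 3 genes of each list with the widest whole-interval difference, and the 5 genes most like the member with the widest range of stage means. Members and lists were chosen with earlier results of these data known. Same-numbered replicates of different stages deviated together at r from -0.26 to 0.23, and other-numbered ones at -0.47 to 0.39. The values thus gave no sign that the numbers pair the arrays, though with 3 arrays a stage they cannot exclude it. No arrays were identical, at 0 pairs.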

Additional observations from a re-analysis of the deposited data

How the results depend on the processing

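Alternatives were quantile normalization, median centring, pseudocounts of 6.53 and 104, no filter or one at the 50th percentile, no trend, array weights, a replicate block, 1 probe set or the mean of all probe sets a gene, only the 6 arrays compared, and leaving out each array. Fits without the narrow-range arrays, without these and 16-20 somites replicate 2, and with each array's 99th percentile as covariate were chosen after seeing the data. Of the 51 member differences, 30 kept their sign under all of these. Of 1152 values under alternatives, 25 moved by at least the within-stage SD, 19 of them in the fits without the narrow-range arrays. The filters, no trend, the replicate block, only the 6 arrays compared and 1 probe set a gene cannot change a difference. Nor can leaving out an array of the stage not compared. The 1152 values and the 30 kept signs thus include cases that could not move. Against 0 in limma, array weights called 1 member probe set (Amot 1454890_at) and 597 probe sets over the whole interval, and 1 probe set at the second step. The covariate called 1 probe set over the whole interval. Leaving out single arrays called 0 to 1 over the whole interval (1 without 26-30 somites replicate 3), 0 to 3 at the first step (3 without 21-25 somites replicate 3) and 0 at the second, with 0 member probe sets throughout. The cause was not tested. With the replicate block, 0 probe sets were called in each comparison and no member call changed.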

Other observations

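Lats2 had the next widest range of stage means after Amot among brightest probe sets, and the genes most like its probe set 1439441_x_at, named after their values were seen, were Impa1 (r = 0.98), Cd164 (0.97) and Depdc1a (0.97) over the 9 arrays. Impa1, an inositol phosphatase gene, had means of 2634 ± 312 at 26-30 and 1408 ± 746 at 16-20 somites (SD, n = 3 each).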
